A study of Arabidopsis thaliana with 6 samples.

Results

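COR47 (AT1G20440) and LTI30 (AT3G50970) are dehydrins of Arabidopsis thaliana, and each has 1 probe set that the platform annotation of the ATH1 array gives to it. They are 2 of 13286 genes that could be named from a probe set of their own, on an array with 22746 probe sets besides its controls. Whole seedlings of 2 brassinosteroid mutants were assayed for their transcripts, both in the Columbia-0 background and both given the same mock treatment. The bzr1-1D mutant carries a dominant allele that keeps the transcription factor BZR1 active, so that the brassinosteroid response is constantly on. The det2 mutant lacks a steroid reductase of brassinosteroid synthesis and is short of the hormone. Each flask held about 15000 seeds in 300 mL of Murashige and Skoog medium with 1.5% sucrose, was shaken gently for 5 days in constant light at 22 °C, and then received 15 µL of 80% ethanol for 3 hours. The work was done 3 times, in different weeks, and each of these experiments gave 1 array of each genotype, so that there were 6 arrays, 3 per genotype. Every array stands for the pooled seedlings of a flask, wild-type arrays were not used here, and each mutant was present as a single line. The mutated genes themselves, BZR1 and DET2, could not be named on the array and were not analysed here.

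Dehydrins are intrinsically disordered, strongly hydrophilic proteins that plant cells accumulate when water becomes scarce through drought, freezing or seed drying. They share the lysine-rich K-segment, which can fold on a membrane surface, and they protect membranes and enzymes. COR47, also called RD17, is an acidic dehydrin with a run of serines, whereas LTI30, also called XERO2, is a basic dehydrin built of K-segments that binds membranes. Transcripts of both rise in cold and with abscisic acid, in part through the CBF activators of the cold response and the bZIP factors of the abscisic acid response. Brassinosteroid and abscisic acid act against each other in much of seedling growth, which is the setting for a comparison of the 2 mutants.

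The values are probe-set intensities on a linear scale, scaled by the authors to a common target on every array. The arrays were alike in median intensity, from 212.75 to 221.4, and in the share of dim probe sets, those under 50, which was 19.6% to 21.5%. GAPDH is read at both ends of its transcript as a sign of RNA integrity, and its 3′ to 5′ ratio was 0.757 and 0.800 in experiment 1 and between 0.461 and 0.496 in the others. The samples were whole seedlings, which have both shoot and root. Of the shoot markers, RCA (Rubisco activase) and PORB (a protochlorophyllide reductase) read between 5322 and 13718. Of the root markers, the root hair expansins EXPA7 and EXPA18 read between 44.2 and 291.5, the lowest value being EXPA7 in bzr1-1D of experiment 2. Because whole seedlings were extracted, fewer cells of a type and less RNA per cell cannot be told apart in any value below.

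COR47 gave a bright signal on every array. In bzr1-1D it read 2198 in experiment 1, 2336 in experiment 2 and 1757 in experiment 3. In det2 it read 2189, 1737 and 1605 in the same order. The genotypes were almost equal in experiment 1 and farthest apart in experiment 2, and the values of the genotypes overlapped. The mean of bzr1-1D was 2097 ± 302 (SD, n = 3) and that of det2 was 1844 ± 306 (SD, n = 3). The highest array was 1.46 times the lowest across both mutants and all 3 weeks.

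LTI30 ranged far more widely. In bzr1-1D it read 1032 in experiment 1, 1979 in experiment 2 and 297.4 in experiment 3. In det2 it read 903.9, 511.6 and 393.7. The single bzr1-1D array of experiment 2 stood well above the other 5. The summed intensity of the root hair expansins EXPA7 and EXPA18, the 2 measured of 12 root markers listed, was 130.8 on that same array and between 331.3 and 549 on the other 5, and its part in the LTI30 level was not tested. Both arrays of experiment 3 lay below the other 4, and the genotypes overlapped. The mean of bzr1-1D was 1103 ± 843 (SD, n = 3) and that of det2 was 603 ± 267 (SD, n = 3), and the highest array was 6.65 times the lowest.

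**Figure D1:**
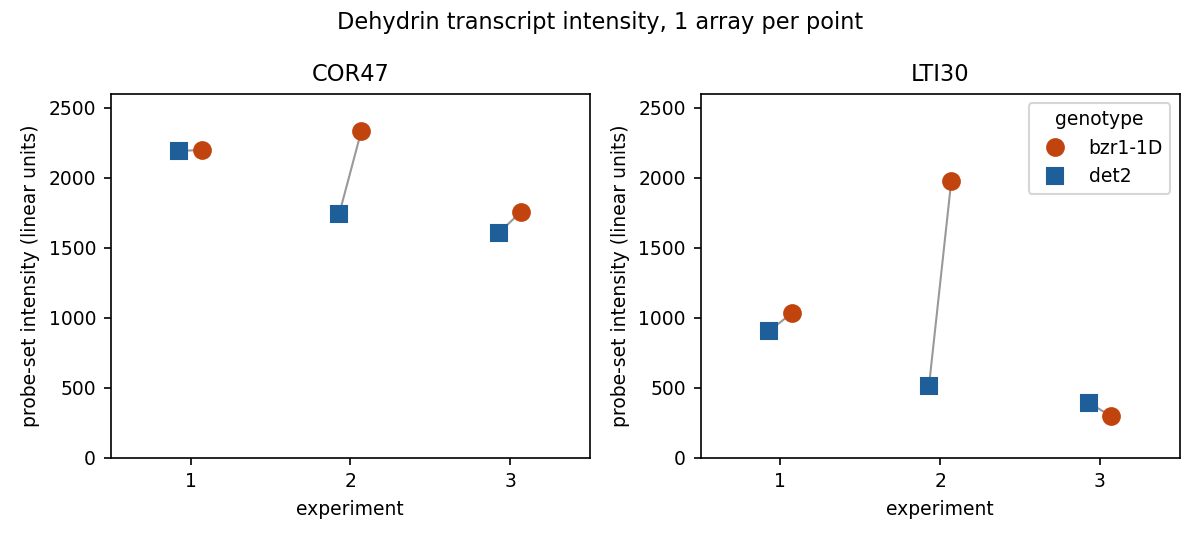
Probe-set intensity (linear units) of COR47 and LTI30 by experiment, 1 point per array, with a grey line joining the genotypes of an experiment. COR47 stays between 1605 and 2336, while LTI30 spans 297.4 to 1979, with its highest point in bzr1-1D of experiment 2.

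The first comparison asks whether the level of these dehydrins differs between seedlings with the brassinosteroid response constantly on and seedlings short of the hormone. Each difference is det2 subtracted from bzr1-1D, after 50 was added to the intensities and log2 taken. COR47 had the higher value in bzr1-1D each time, by 0.0055 in experiment 1, 0.42 in experiment 2 and 0.13 in experiment 3. In experiment 2, where the gap was widest, bzr1-1D had 1.34 times the intensity of det2. Over all probe sets, 12.4% were higher in bzr1-1D in every experiment, 15.5% were lower in every experiment and 71.7% had both signs. The mean difference of COR47 was 0.18 ± 0.14 (SE, n = 3 pairs), with a 95% interval from -0.20 to 0.56 (limma with the experiment as a block, unadjusted p = 0.266, Benjamini-Hochberg adjusted p = 0.815). The interval allows a change of up to 0.56 upwards, and no difference was detectable at this number of arrays.

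LTI30 changed sign between experiments, as did 71.7% of all probe sets. It was higher in bzr1-1D by 0.18 in experiment 1 and by 1.85 in experiment 2, and in experiment 3 it was lower, at -0.35. In intensity, bzr1-1D had 1.14 times the value of det2 in experiment 1, 3.87 times in experiment 2 and 0.755 times in experiment 3. The mean difference was 0.56 ± 0.45 (SE, n = 3 pairs), with a 95% interval from -0.62 to 1.75 (limma, unadjusted p = 0.273, adjusted p = 0.818). Without experiment 2 it was -0.0855, and without experiment 3 it was 1.02. The mean of COR47 also leaned on experiment 2 and was 0.07 without it. Across the array as a whole 0% of the probe sets passed an adjusted p of 0.05, and 6.84% had an unadjusted p under 0.05.

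Set against all probe sets, the mean genotype difference of LTI30 was larger in size than that of 93.6% of them and that of COR47 larger than that of 59.6%. In experiment 2 alone the gap of LTI30 exceeded that of 98.2% of the probe sets in size. The 3 differences of LTI30 spanned 2.21 from lowest to highest, against 0.41 for COR47 and a median of 0.53 over all probe sets. LTI30 thus lay above that median and COR47 below it. Experiment 2 had the widest spread of genotype differences over the array, with an SD of 0.592 against 0.350 in experiment 1 and 0.469 in experiment 3.

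**Figure D2:**
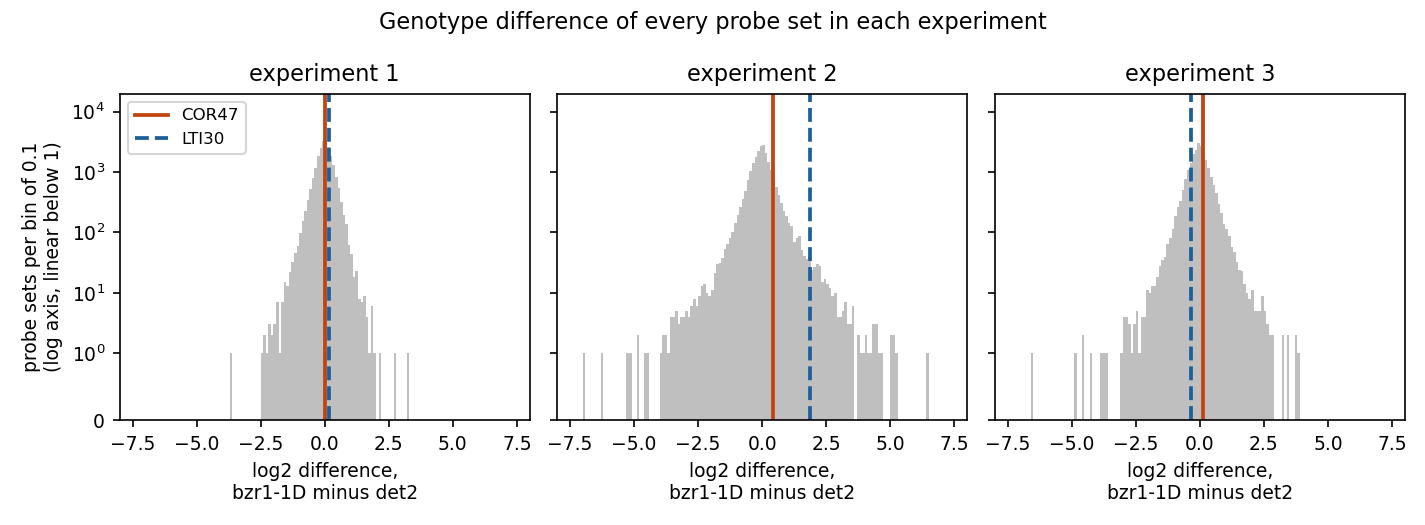
Distribution of the log2 difference, bzr1-1D minus det2, over 22746 probe sets in each experiment (bars, number of probe sets per bin on a log axis that is linear below 1), with lines at COR47 and LTI30. COR47 stays near the centre, whereas LTI30 moves from 0.18 to 1.85 to -0.35.

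The second comparison is between the experiments, which were run in different weeks. Experiment 3 gave the lowest level of both dehydrins in each genotype. COR47 averaged 2194 ± 6.08 (SD, n = 2) in experiment 1, 2037 ± 423 (SD, n = 2) in experiment 2 and 1681 ± 108 (SD, n = 2) in experiment 3. LTI30 averaged 968.0 ± 90.7 (SD, n = 2), 1245 ± 1038 (SD, n = 2) and 345.6 ± 68.1 (SD, n = 2). For LTI30 the means of experiments 1 and 2 did not differ beyond the spread within experiment 2, while both arrays of experiment 3 lay below the remaining 4. An experiment holds 1 array of each genotype, so its SD contains the genotype difference.

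In bzr1-1D the LTI30 intensity of experiment 2 was 6.65 times and that of experiment 1 was 3.47 times that of experiment 3. In det2 the same ratios were 1.299 and 2.296. For COR47 they were 1.33 and 1.25 for bzr1-1D and 1.08 and 1.36 for det2. The lower value of experiment 3 was thus seen in both mutants and both genes. Experiment 3 was lowest within each genotype in 12.2% of all probe sets. Both of its arrays lay below the other 4 in 7.17%, a pattern that LTI30 met and COR47 did not, since COR47 in bzr1-1D of experiment 3 (1757) stood just above det2 of experiment 2 (1737).

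Neither gene passed the test between experiments. With the genotype as a term, the limma F test over the 3 experiments gave an unadjusted p of 0.198 for COR47 (adjusted p = 0.588) and 0.0864 for LTI30 (adjusted p = 0.490). Of all probe sets 11.1% had an unadjusted p under 0.05 in this test and 0% passed after adjustment. The log2 range over the experiments exceeded that of 97.7% of all probe sets for LTI30 and that of 56.4% for COR47. On the log2 scale LTI30 was lower in experiment 3 than in experiment 2 by -1.44 ± 0.55 (SE), with a 95% interval from -2.89 to 0.0086, and lower than in experiment 1 by -1.37 ± 0.55 (SE), with an interval from -2.82 to 0.080. COR47 differed by -0.26 ± 0.18 (SE) and -0.38 ± 0.18 (SE). Experiment 2 minus 1 was -0.12 ± 0.18 (SE) for COR47 and 0.07 ± 0.55 (SE) for LTI30, where the mean covers opposite moves: bzr1-1D of experiment 2 was at 1.92 times experiment 1, and det2 of experiment 1 at 1.77 times experiment 2. Without the bzr1-1D array of experiment 2, experiment 3 minus 2 was -0.47 for LTI30 and -0.08 for COR47, and LTI30 was at -0.90 for experiment 2 minus 1. Without the det2 array of experiment 2, that last value was 1.04. The range of LTI30 over the experiments was 2.41 without the det2 array of experiment 2, 2.13 without the det2 array of experiment 3 and 0.76 without the bzr1-1D array of experiment 3, and in each of these fits experiment 3 was still the lowest.

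Experiment 3 was also the week in which genes of low-oxygen response were high. Plant cells induce these genes when oxygen runs short, as it can in submerged tissue. Of 19 such genes listed, 7 had a named probe set, and all 7 were highest in experiment 3, as were 35.0% of all probe sets. Their summed intensity was between 3097 and 3747 in experiment 1, between 1933 and 2071 in experiment 2, and in experiment 3 it reached 15406 for bzr1-1D and 24244 for det2. HRA1, a trihelix factor that dampens the low-oxygen response, read 2900.2 for bzr1-1D and 3534 for det2 in that week, against 44.7 to 110.7 on the other 4 arrays. All 7 had an unadjusted p under 0.05 in the F test, as did 11.1% of all probe sets. After adjustment 0 of the 7 passed, and 0% of all probe sets. The part of low oxygen in the lower dehydrin level of experiment 3 was not tested. The GAPDH 3′ to 5′ ratio was 0.757 and 0.800 in experiment 1 and between 0.461 and 0.496 in experiments 2 and 3. Its part in the dehydrin levels was not tested either.

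**Figure D3:**
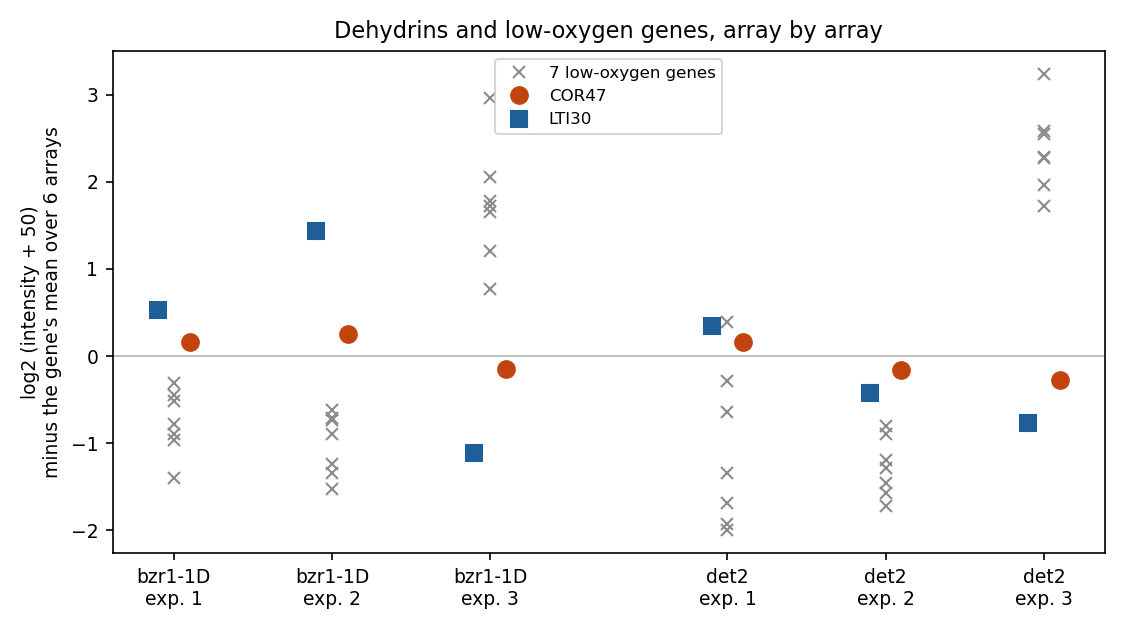
Levels of COR47, LTI30 and 7 low-oxygen genes on each array, as log2 of intensity plus 50 minus the gene's own mean over 6 arrays. In experiment 3 the crosses of the low-oxygen genes lie above 0 in both genotypes while COR47 and LTI30 lie below 0.

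Of the 8 other dehydrins listed, 4 had a named probe set, and 1 was higher and 3 were lower in bzr1-1D on average, whereas COR47 and LTI30 were higher. The median log2 difference of the 4 was -0.14 against -0.01 over all probe sets. One of them had an unadjusted p under 0.05 by limma, against 6.84% of all probe sets, and 0 passed after adjustment. The 1 that was higher, LEA, and AT4G39130 among the 3 lower were below 50 on every array. HIRD11 (AT1G54410), a small histidine-rich dehydrin that binds metal ions, read 4930, 2434 and 2629 for bzr1-1D against 6345, 2231 and 3258 for det2 over experiments 1 to 3. It was high in both arrays of experiment 1 and had no overlap between experiment 1 and the others. Of all probe sets, 12.7% had both arrays of experiment 1 above the other 4. Its F test between experiments gave an unadjusted p of 0.0040 and an adjusted p of 0.316, and experiment 2 minus 1 was -1.25 ± 0.19 (SE). The week with the highest HIRD11 level in both mutants was therefore experiment 1, as for COR47 in det2 and LTI30 in det2.

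AT4G38410 is a locus put in the dehydrin list by hand and not named in the gene table. Its mean difference between genotypes was opposite in sign to the means of COR47 and LTI30, though LTI30 was also lower in bzr1-1D in experiment 3. It read 269.4, 302.4 and 129.2 for bzr1-1D against 448.6, 719.5 and 667.5 for det2, so the genotypes did not overlap, as in 9.32% of all probe sets. Its log2 differences were -0.64, -1.13 and -2.001 in the same order, with a mean of -1.26 ± 0.29 (SE) and an unadjusted p of 0.0084 by limma (adjusted p = 0.7005). AT4G39130, the other locus without a name, stayed between 9.6 and 32.4, and the dehydrin LEA (AT2G21490) between 4.6 and 40.8. Both are below the offset of 50 on every array, so their differences carry little information. The dehydrins ERD10, ERD14, RAB18 and XERO1 had no named probe set and were not analysed here.

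Of the 113 cold and abscisic acid genes listed beyond the dehydrins, 8 had a named probe set, and 3 were higher and 5 lower in bzr1-1D. Experiment 3 was the lowest of the 3 in 3 of the 8, against 30.6% of all probe sets. With the dehydrins, 14 of 123 listed genes were measured. Of the 14, 2 had an unadjusted p under 0.05 between genotypes and 2 between experiments, and 0 passed after adjustment in either comparison. Over all probe sets the unadjusted shares were 6.84% between genotypes and 11.1% between experiments, and 0% passed after adjustment. None of the listed genes of abscisic acid synthesis or signalling, from NCED3 to ABI5, had a named probe set, and neither did CBF1, CBF2 or CBF3.

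Of the cold regulators 2 were measured. ZAT10, a zinc finger repressor that cold and other stresses induce, came closest to the genotype pattern of LTI30 in experiment 2, with 1407 for bzr1-1D against 331.0 for det2. In experiment 1 it was the other way round, 825.5 and 1240, and in experiment 3 it read 1195 and 670.6. Its mean log2 difference was 0.72 ± 0.49 (SE), and its 3 differences spanned 2.49, a little more than those of LTI30. SIZ1, the SUMO ligase that stabilises the CBF activator ICE1, had a difference of -0.05 ± 0.16 (SE).

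Of the cold targets 5 were measured, 2 of them higher and 3 lower in bzr1-1D. COR15A and COR15B, which protect chloroplast membranes in the cold, read 19.6 to 64.4 and 100.3 to 257.4 over the 6 arrays. Their differences between genotypes were 0.14 ± 0.17 (SE) and -0.02 ± 0.24 (SE). Between experiments COR15A was at -0.49 ± 0.21 (SE) and COR15B at -0.54 ± 0.29 (SE) for 3 minus 1, the sign that COR47 and LTI30 had. For experiment 3 minus 2 both were near 0, at -0.07 and -0.01, where LTI30 was at -1.44. COR27, a cold-regulated protein tied to the circadian clock, had -0.22 ± 0.34 (SE) between genotypes, with 0.74 in experiment 2 and -0.90 in experiment 1.

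AT4G33980, listed with the cold targets, moved the other way between weeks. It read 65.6, 151.4 and 218.2 for bzr1-1D against 113.8, 83.4 and 351.8 for det2, highest in experiment 3 in both mutants, with 1.25 ± 0.34 (SE) for experiment 3 minus 1 (F test, unadjusted p = 0.0334, adjusted p = 0.428). LEA4-5, a late embryogenesis protein, was below 50 on every array, though its highest value, 46.4, was the bzr1-1D array of experiment 2. AT3G02480, the 1 measured gene of the abscisic acid target list, had the lower value in bzr1-1D each time, as did 15.5% of all probe sets, with 16.8 ± 8.29 (SD, n = 3) against 69.4 ± 38.4 (SD, n = 3) and a log2 difference of -0.80 ± 0.20 (SE) (unadjusted p = 0.0128, adjusted p = 0.7005). Its bzr1-1D values all lay below 50. The seed storage protein PAP85, the 1 measured gene of 18 listed for seed maturation, a stage at which dehydrins are also made, read 43.1 to 78.7 in bzr1-1D and 57.3 to 127.5 in det2. In det2 it was highest in experiment 3, where LTI30 was lowest. In bzr1-1D experiments 1 and 3 were almost equal, at 77.3 and 78.7.

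**Figure D4:**
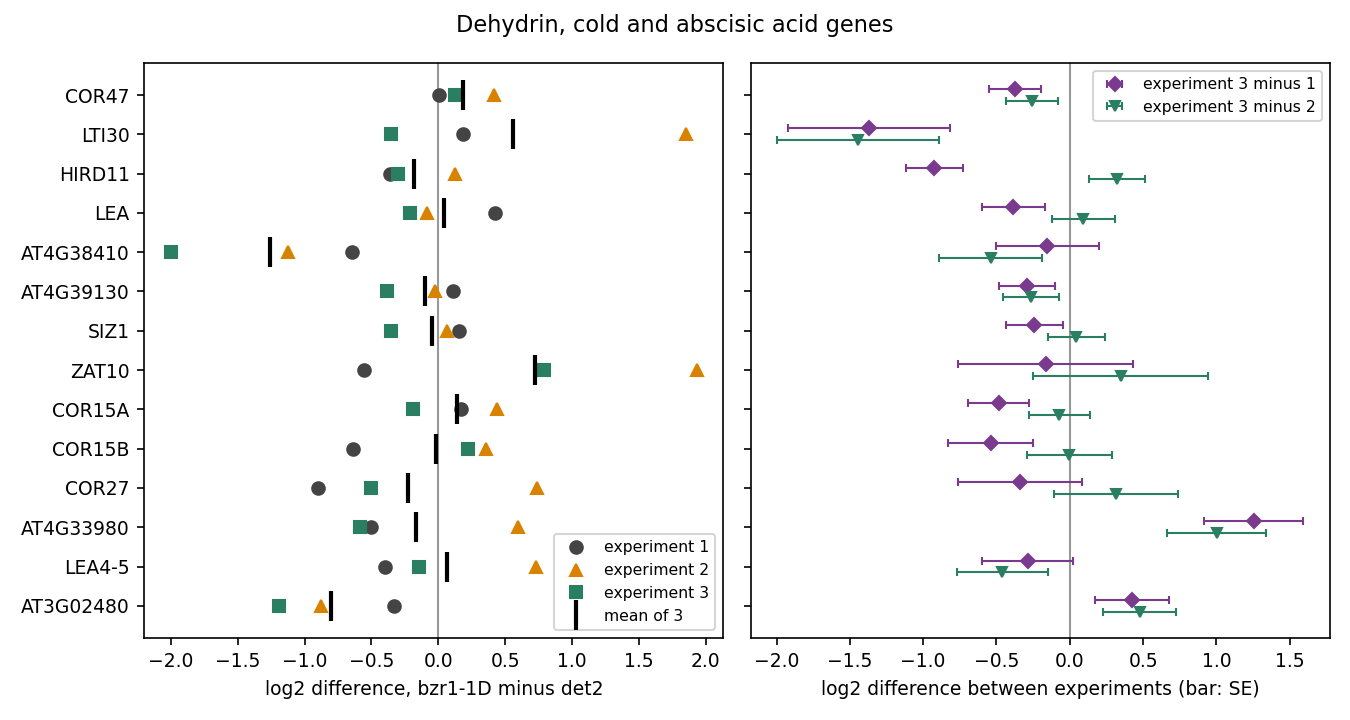
Left, log2 difference between bzr1-1D and det2 in each experiment (symbols) and its mean (bar) for 14 dehydrin, cold and abscisic acid genes. Right, log2 difference of experiment 3 from experiments 1 and 2 with its SE. LTI30 has the lowest values on the right, and AT4G38410 and AT3G02480 lie left of 0 in every experiment on the left.

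Neighbouring genes on the chromosome were compared because COR47 and LTI30 each sit beside another dehydrin gene, ERD10 and XERO1. Of the named probe sets nearest to COR47, AT1G20430, the next gene before it, had its lower value in bzr1-1D each time, at 672 ± 61.2 (SD, n = 3) against 819 ± 29.3 (SD, n = 3). AT1G20410 did likewise, as did 15.5% of all probe sets, with a log2 difference of -0.15 ± 0.13 (SE). On the other side AT1G20490 was also lower in bzr1-1D each time, with -0.41 ± 0.13 (SE). AT1G20500 had -0.33 ± 0.17 (SE) but changed sign, with 0.05 in experiment 2. Thus 4 of the 6 neighbours with named probe sets had the opposite sign to COR47, where the median over all probe sets was -0.01. AT1G20480, at 0.40 ± 0.19 (SE), and AT1G20400, at 0.03 ± 0.12 (SE), shared its sign. AT1G20400, AT1G20480 and AT1G20500 were dim, with mean intensities below 50 in both genotypes. None of the 6 had an adjusted p under 0.05 by limma.

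Around LTI30, 4 of the 6 neighbours with a named probe set had their lowest fitted level in experiment 3, against 30.6% of all probe sets. AT3G50910 read 689.1, 592.9 and 342.8 for bzr1-1D against 605.1, 462.8 and 330.5 for det2, so that both arrays of experiment 3 lay below the other 4. Its experiment 3 minus 1 was -0.85, and its F test had an unadjusted p of 0.0102 and an adjusted p of 0.385. AT3G50900 read 349.2, 745.1 and 309.6 for bzr1-1D against 473.4, 513.4 and 238.0 for det2, highest in experiment 2 and lowest in experiment 3 in both mutants. These lie 8 and 9 genes before LTI30. AT3G50940 was lowest in experiment 3 in bzr1-1D, at 18.8, whereas its highest det2 value, 47.8, was also in experiment 3. AT3G51000 was lowest there in bzr1-1D (282.5) and not in det2 (443.7). Its mean log2 difference between genotypes was -0.30 ± 0.15 (SE), opposite in sign to the mean of LTI30. The nearest measured gene, AT3G50990, was below 50 on every array, and AT3G51010, 4 genes away, was lowest in experiment 1.

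COR47 and LTI30 followed each other over the 6 arrays. In both, the order of the 3 highest arrays was bzr1-1D of experiment 2, bzr1-1D of experiment 1 and det2 of experiment 1. The lower 3 differed only in the place of bzr1-1D of experiment 3, which was lowest for LTI30 but above both remaining arrays for COR47. Pearson's r between them was 0.91 and Spearman's rho 0.83 on log2 of intensity plus 50. The 2 arrays farthest from the COR47 median were bzr1-1D of experiment 2 and det2 of experiment 3. Without them r was also 0.91, over arrays that still held both of experiment 1 and the lowest LTI30 array. After the genotype means were removed r was 0.91. This is a description over 6 arrays that share experiments and so are not independent. Of 8328 genes with a mean intensity of at least 100, 98.4% had a lower r with COR47 than LTI30 had.

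The genes most like COR47 by Pearson's r over the 6 arrays were AT4G13180 (r = 0.997), AT1G28600 (r = 0.995), the pectin methylesterase ATPMEPCRB (r = 0.992), the glutathione transferase GSTU22 (r = 0.992) and AT1G13750 (r = 0.991). They differed more between arrays than COR47 did. ATPMEPCRB, which modifies cell wall pectin, read 2390, 3655 and 948.6 for bzr1-1D against 2998, 807.5 and 462.7 for det2. The genes most like LTI30 were the receptor kinase SD1-29 (r = 0.993), AT2G34250 (r = 0.988), AT4G34480 (r = 0.987), AT4G08850 (r = 0.986) and AT5G61560 (r = 0.984). SD1-29 read 491.6, 812.0 and 221.6 for bzr1-1D against 410.5, 291.7 and 253.2 for det2, the same order of arrays as LTI30 with smaller steps. All 10 genes were lowest in experiment 3 by the fitted level and had a positive mean difference between bzr1-1D and det2. Since each was picked as one of the best matches among 8328 genes over only 6 arrays, these values are a description.

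**Figure D5:**
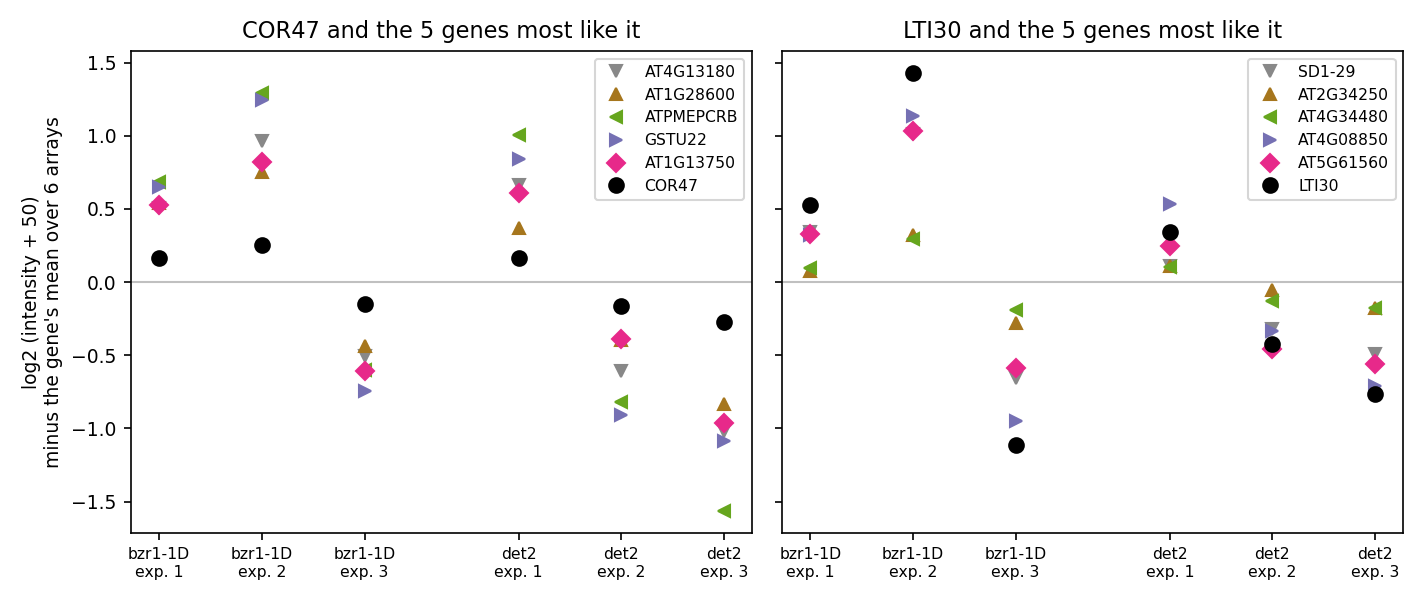
Levels of COR47 (left) and LTI30 (right) with the 5 genes most like each, as log2 of intensity plus 50 minus the gene's own mean over 6 arrays. All are above 0 in bzr1-1D of experiments 1 and 2 and in det2 of experiment 1, and below 0 on the other 3 arrays.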

How the data were processed

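Per the labels, total RNA of whole seedlings (Trizol, then a silica column) was turned into biotinylated cRNA, of which each Affymetrix ATH1 array received 15 µg. The deposited values are probe-set intensities on a linear scale, which the authors obtained with GCOS 1.1 at a target intensity of 500, per the labels. The values fit that scaling, with a mean trimmed by 2% at either end of 500.04. A later division by the wild type in GeneSpring 7.0, named in the labels, is not present in these values.

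Of 22810 probe sets, 64 controls were left out and 22746 tested on log2 of intensity plus 50. The platform annotation paired 13513 with 1 gene, 503 with several and 8730 with none. Through the gene identifier 13436 were matched to the TAIR10.1 gene table, used for names and gene order. Tests were two-sided with limma 3.58.1 in R 4.3.3 with p-values adjusted over all probe sets (Benjamini-Hochberg) and with experiment and genotype as terms. The labels call the arrays biological replicates and pair same-numbered arrays by experiment. Deviations from the genotype mean correlated between the arrays of a pair at 0.39, 0.08 and 0.37, so in experiment 2 the pairing rests on the labels.

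The members and lists were chosen with earlier results of these data known. Named were all measured dehydrin, cold and abscisic acid genes of the lists, up to 3 neighbours a side and the 5 most similar genes, while marker lists were given by counts and ranges, and the few markers named from them, such as HRA1, were chosen after their values were seen. In simulated data with 22746 probe sets, each size of log2 difference was given to 50 of them. The test of bzr1-1D against det2 recovered 0% of differences of 1, 74% of 2 and 96% of 3, and called 4 unchanged probe sets. The test between experiments, simulated without the measured experiment differences, recovered 0%, 50% and 86%, and called 10 unchanged probe sets. These shares hold for that number of changed probe sets and are not the power of the real data. Figures were drawn with matplotlib 3.10.9.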

Additional observations from a re-analysis of the deposited data

Results flagged for a closer look

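The difference between bzr1-1D and det2 had opposite signs in different experiments for 11 of the 14 dehydrin, cold and abscisic acid genes, against 71.7% of all probe sets. COR47, AT4G38410 and AT3G02480 kept 1 sign. With 1 array per genotype in an experiment, the difference between experiments was not tested for any of them. For LTI30 the highest and lowest differences were 2.21 apart on the log2 scale, from 1.85 in experiment 2 to -0.35 in experiment 3. The same distance was 2.49 for ZAT10, 1.64 for COR27, 1.18 for AT4G33980, 1.13 for LEA4-5 and 0.99 for COR15B. It was 0.64 for LEA, 0.62 for COR15A, 0.51 for SIZ1, 0.50 for AT4G39130 and 0.48 for HIRD11. LEA4-5, LEA and AT4G39130 were below an intensity of 50 on every array.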

How the results depend on the processing

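Without an experiment the difference between bzr1-1D and det2 ran from 0.07 to 0.27 for COR47 and from -0.0855 to 1.02 for LTI30, the sign of LTI30 turning without experiment 2. Under the other alternatives (offsets of 16, 100 or none, centring, quantile normalization, a mean intensity of at least 100, robust or trended eBayes, array weights, no replicate block or a random one, every probe set of the gene) it stayed between 0.16 and 0.19 for COR47 and between 0.45 and 0.58 for LTI30, and no fit called either (limma, adjusted p from 0.729 to 0.990 and from 0.745 to 0.994). Of all probe sets 1 was called with no replicate block and 1 when the block was a random effect, against 0 with the fixed block, which changed no other call. Between experiments 4 probe sets were called with no genotype term, against 0 with it, and neither COR47 nor LTI30 was among them. With 1 array left out the range over experiments ran from 0.26 to 0.51 for COR47 and from 0.76 to 2.41 for LTI30, with experiment 3 lowest each time, and calls over all probe sets stayed at 0. With 1 array left out, experiment 2 minus 1 ran from -0.29 to 0.055 for COR47 and from -0.90 to 1.04 for LTI30. It turned sign for LTI30 without the bzr1-1D array of experiment 1 (-0.21) or 2 (-0.90), and for COR47 without the det2 array of experiment 1 (0.013) or 2 (0.055). The cause was not tested. The number of arrays, 3 per genotype, and intensities below 50 limit what can be seen.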
